A study of Mus musculus with 12 samples.

Results

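NRF2, the transcription factor encoded by Nfe2l2, its inhibitor KEAP1 and 6 antioxidant target genes were followed through a mouse model of kidney cancer made by deleting the Hippo pathway kinases Lats1 and Lats2. The 8 genes are Nfe2l2, Keap1, Nqo1, Hmox1, Gclc, Gclm, Txnrd1 and Srxn1. They were chosen by name, each from the row of the expression table whose Ensembl identifier carries that symbol, and they are 8 of the 24432 genes in the table. All 8 were among the 16313 genes that passed a filter on low values (at least 1 FPKM in at least 3 of the 12 libraries). FPKM are fragments per kilobase of transcript, scaled by the size of the library, so they are per length and can be set side by side between genes.

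RNA sequencing covered 4 groups of 3 libraries. Slc34a1CreERT2;Lats1/2flox/flox mice gave the primary tumors of the kidney and the metastases of the lung; they received 3 tamoxifen injections at 1 month of age and were collected 4 months later; this tamoxifen-activated Cre is driven from the locus of Slc34a1, a phosphate transporter of the proximal tubule. Normal proximal tubule cells were sorted by flow cytometry from adult Slc34a1CreERT2;Lats1c/c;Lats2c/+;RosaTomato mice, so these reference cells also carry conditional Lats alleles; no source used here says whether they received tamoxifen. Allograft tumors grew from Lats1-/-;Lats2-/- cells placed under the renal capsule of NOD/scid hosts aged 6 to 8 weeks, a strain that lacks T and B lymphocytes, and were dissected 6 weeks after injection; how many clones the cells came from is not given either. No source says whether the libraries of a group come from separate animals, so the p-values below measure only the spread between these libraries.

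NRF2 is a basic leucine zipper factor that switches on genes for glutathione synthesis, thioredoxin recycling, quinone reduction and heme breakdown. KEAP1 holds it in the cytoplasm and hands it to a CUL3 ubiquitin ligase, and oxidants or electrophiles that modify KEAP1 cysteines let NRF2 accumulate, enter the nucleus and pair with a small MAF protein at antioxidant response elements. Control acts largely on the NRF2 protein, so the Nfe2l2 transcript is not a readout of NRF2 activity. The kidney's proximal tubule, with its high rate of transport and respiration, makes much glutathione and detoxifying enzyme, and kidney cancers can carry changes in this pathway.

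The libraries differed in ways that touch every comparison with the proximal tubule. Estimated from the size of the smallest steps in the values, depth was about 4620000 to 6299000 fragments in the proximal tubule libraries and 11342000 to 18508000 in the 9 tumor libraries. The median gene lay above the proximal tubule by 0.59 (log2) in the primary tumors, 0.68 in the metastases and 0.66 in the allografts, while the 3 medians between tumor groups were between -0.02 and 0.03. A single short RNA gene, Mir6236, took 317686 to 1082170 FPKM in the tumor libraries and 0 to 57.2 in the proximal tubule, and rescaling each library to TPM turned the primary tumor median to -0.29, the metastasis median to -0.18 and the allograft median to -0.37. With the FPKM as deposited, 7861 genes were higher and 800 lower in primary tumors than in proximal tubule, against 3028 and 5407 after TPM rescaling; the metastases gave 8803 and 2355 against 4511 and 5817, and the allografts 8521 and 2755 against 3503 and 6908. Changes from the proximal tubule are therefore given with that median beside them and with the result under 4 other scalings: TPM, median-of-ratios scaling, quantile normalization, and scaling by each library's sum without the 50 genes most abundant on average over the libraries. In primary tumors, metastases and allografts median-of-ratios scaling gave medians of 0.08, 0.20 and 0.19. Quantile normalization gave -0.12, -0.04 and 0.01, and leaving out the 50 genes gave 0.30, 0.33 and 0.13. All 4 scalings thus lowered the median difference from the proximal tubule, so under them a fall is easily kept and a rise easily lost.

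Marker genes separated the libraries further. Over 9 proximal tubule markers the summed level was 5060 to 6014 FPKM in the sorted cells, 162, 3936 and 1014 FPKM in primary tumors 1, 2 and 3, 176 to 221 FPKM in metastases and at most 108 FPKM in allografts. In metastases and allografts most of the sum was Aqp1 and Lrp2. Aqp1 was at 141 to 180 FPKM in metastases against 83.2 FPKM in primary tumor 1, and Lrp2 at 30.4 to 39.9 FPKM against 35.9 FPKM. Every other tubule marker was lower in metastases than in primary tumor 1. Slc34a1 and Hnf4a were at most 0.0951 and 0.242 FPKM there, against 6.17 and 9.10 FPKM. Over 9 macrophage markers the summed level was 7.51 to 7.84 FPKM in the sorted cells, with Cd163 at 0 in all 3, against 2815, 412 and 574 FPKM in the primary tumors, 5084 to 5668 FPKM in metastases and 1720 to 6556 FPKM in allografts. Most of the metastasis sum was 1 gene, Lyz2, at 3678 to 4493 FPKM. Lyz2 and Cd68 were higher in all 3 metastases than in primary tumor 1, and every other macrophage marker was lower, such as C1qa at 242 to 371 FPKM against 411 FPKM. Lung epithelium markers (6 genes, among them the surfactant gene Sftpc) summed to 12185 to 19333 FPKM in metastases and to at most 10.2 FPKM in any other library, so the metastasis libraries hold lung tissue. Fibroblast markers (7 genes) ran from 2.62 to 4.93 FPKM in the sorted cells and from 160 to 2372 FPKM in tumors, endothelial markers (5 genes) from 37.1 to 55.4 and from 44.8 to 333 FPKM, and T and B lymphocyte markers (6 genes) from 0.129 to 0.504 FPKM and, in allografts, from 8.00 to 59.8 FPKM. Proximal tubule markers were thus much higher in primary tumor 2 than in primary tumor 1, and how near tumor 2 came to normal depended on the scaling: after TPM rescaling the sum was 2202 in primary tumor 2 against 7166 to 8431 in the sorted cells. Xist and Ddx3y, which mark female and male tissue, divided the primary tumors in the same way: primary tumor 1 had 163 FPKM of Xist and 0.112 FPKM of Ddx3y, while primary tumors 2 and 3 had 0.323 and 0.374 FPKM of Xist and 30.0 and 20.5 FPKM of Ddx3y. The sorted cells and the metastases had the female pattern, with Xist at 87.9 to 183 FPKM and Ddx3y at 0 to 0.259 FPKM, and all 3 allografts had both genes, with 48.9 to 127 FPKM of Xist and 8.94 to 22.8 FPKM of Ddx3y. Sex markers therefore differed between the groups as well, and their part in the comparisons was not tested. In bulk tissue, fewer cells of a type and less RNA per cell cannot be told apart.

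The 6 target genes did not move as a block. Hmox1 was highest in lung metastases, Nqo1 was lowest in allografts and metastases, Gclm fell in both and Gclc fell in allografts, whereas Txnrd1 kept a high level in every group. A moderated F test over the 4 groups (limma, Benjamini-Hochberg adjustment over all genes) called 6 of the 8 genes, beside 79.5% of all genes tested. The 2 genes it did not call were Txnrd1, with an adjusted p of 0.127, and Srxn1, with an adjusted p of 0.101.

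**Figure D1:**
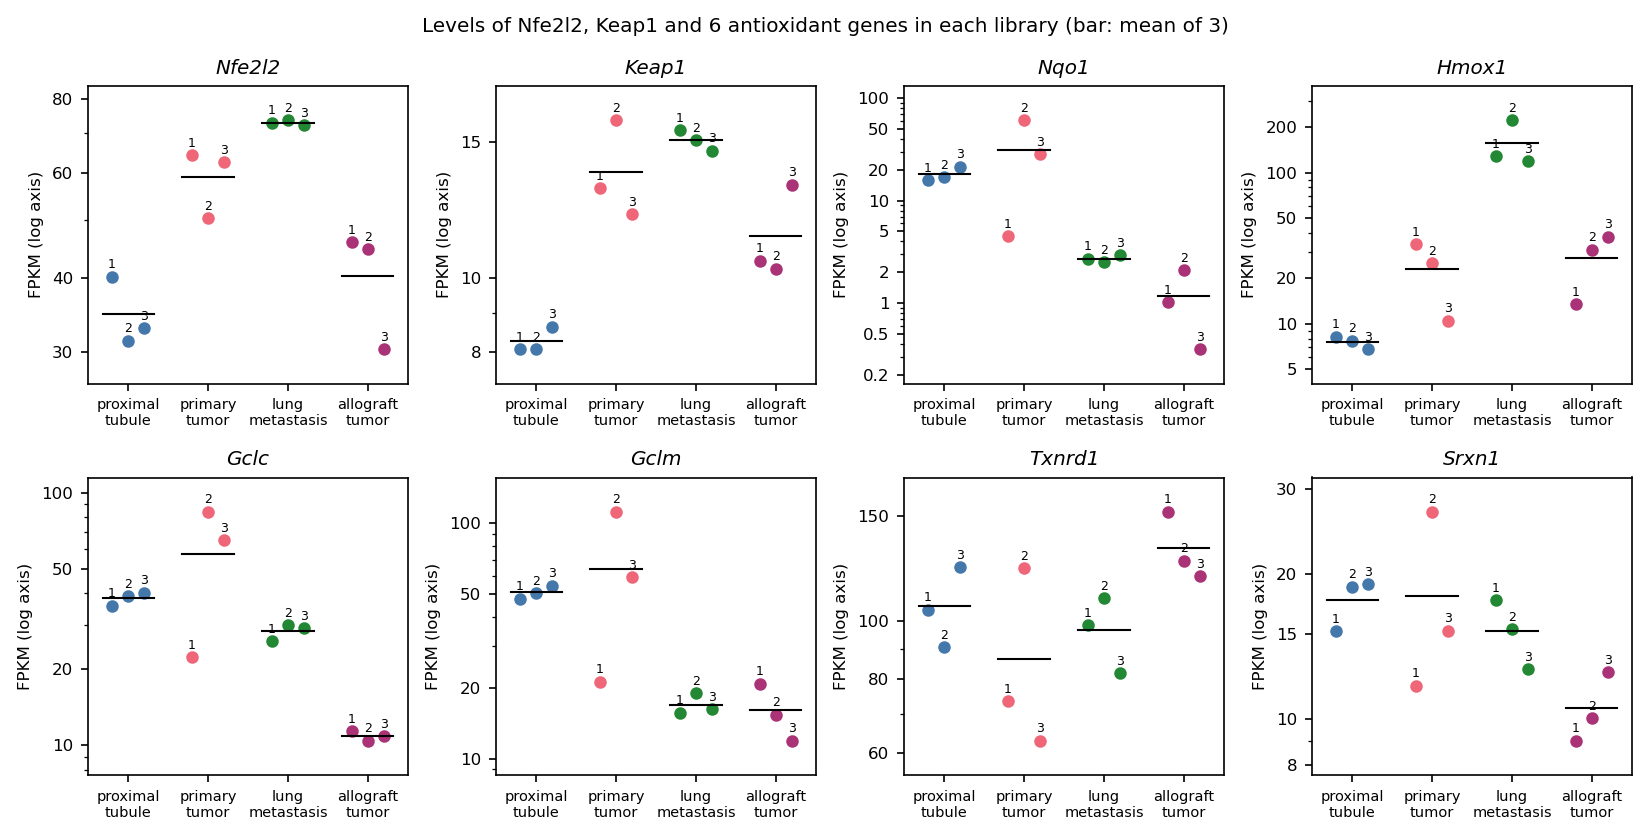
Level of each of the 8 genes in every library, in FPKM on log axes that differ between panels; numbers beside points are the replicate numbers and bars are means of 3 libraries. Hmox1 in the metastases lies between 119.8 and 222 FPKM, above all other libraries, and Nqo1 spreads from 4.51 to 60.8 FPKM within the primary tumors.

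Nfe2l2 itself (chr2:75675513-75704641, minus strand, GRCm38) was measured at 40.1, 31.3 and 32.8 FPKM in proximal tubule, at 64.3, 50.4 and 62.7 FPKM in primary tumors, at 73.0, 73.7 and 72.3 FPKM in metastases and at 45.95, 44.7 and 30.3 FPKM in allografts. Metastases were the highest group and the tightest, primary tumors came next without overlapping either neighbour, and allograft and proximal tubule libraries overlapped. The means were 34.8 ± 4.71 FPKM (SD, n = 3) in proximal tubule, 59.1 ± 7.62 in primary tumors, 73.0 ± 0.673 in metastases and 40.3 ± 8.71 in allografts. On the log2(FPKM + 1) scale the factor's transcript was 0.75 ± 0.18 (SE) above proximal tubule in primary tumors (limma, adjusted p = 0.0063) and 1.06 ± 0.18 in metastases (adjusted p = 5.1e-04). These differences exceed the median gene by only 0.16 and 0.38. The primary tumor call was lost under all 4 other scalings, where the value ran from -0.34 to 0.48, and the metastasis call under 2 of them. The steadier contrast lay among the tumors, where Nfe2l2 fell by 0.86 ± 0.18 from metastases to allografts (adjusted p = 0.0071), a call kept in all 25 alternatives. Against primary tumors the allograft difference was -0.56 ± 0.18 (adjusted p = 0.033), and it missed the threshold without allograft 3 (-0.37, adjusted p = 0.091), without primary tumor 1 (-0.49, adjusted p = 0.072), without primary tumor 3 (-0.51, adjusted p = 0.092), or without metastasis 2 or 3, over an adjusted p of 0.0099 to 0.165 in all alternatives.

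Keap1 (chr9:21229730-21239361, minus strand), the adaptor that sends NRF2 to degradation, was lower than the factor's transcript in every library. Its levels were 8.08, 8.08 and 8.64 FPKM in proximal tubule, 13.1, 16.0 and 12.1 FPKM in primary tumors, 15.5, 15.1 and 14.6 FPKM in metastases and 10.5, 10.3 and 13.2 FPKM in allografts. In the deposited FPKM every tumor library was above every proximal tubule library, while after TPM rescaling the primary tumors, at 8.62 to 8.96, were below the sorted cells, at 10.9 to 12.1. The primary tumors overlapped both other tumor groups. Keap1 was 0.66 ± 0.15 (log2, SE) above proximal tubule in primary tumors (limma, adjusted p = 0.0038), 0.80 ± 0.15 in metastases (adjusted p = 7.4e-04) and 0.41 ± 0.15 in allografts (adjusted p = 0.029). Relative to the median gene these are differences of 0.07, 0.12 and -0.25. Under the 4 other scalings the calls were lost in primary tumors 4 times and in metastases 3 times, and in allografts the sign turned, to between -0.87 and -0.18. In allografts the call was also lost without any one proximal tubule library (adjusted p = 0.052 to 0.078) or without allograft 3 (0.30, adjusted p = 0.089). Exons of Keap1 overlap an antisense gene, Gm16754, and whether fragments were counted by strand is not stated, so reads of the pair may not have been told apart.

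The ratio of inhibitor to factor inside a library does not depend on how that library was scaled. Keap1 to Nfe2l2 gave a mean log2 ratio of -2.06 ± 0.22 (SD, n = 3) in proximal tubule, -2.11 ± 0.40 in primary tumors, -2.28 ± 0.04 in metastases and -1.82 ± 0.54 in allografts. The groups overlapped, and an exact permutation test over all 369600 assignments of the 12 libraries to 4 groups gave p = 0.481, adjusted over 3 ratios to 0.481. This does not show that the ratios were equal.

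Nqo1 (chr8:107388225-107403206, minus strand), a quinone reductase and the textbook NRF2 target, had the widest range of the target genes on a fold scale. It stood at 15.9, 17.0 and 21.5 FPKM in proximal tubule, at 4.51, 60.8 and 28.6 FPKM in primary tumors, at 2.71, 2.51 and 2.95 FPKM in metastases and at 1.02, 2.11 and 0.355 FPKM in allografts. Metastases and allografts lay below all proximal tubule and all primary tumor libraries, every allograft lay below every metastasis, and the primary tumors fell on both sides of normal in the deposited FPKM. The lowest value, in allograft 3, corresponds to about 6.25 fragments, against 114 to 195 fragments in the shallower proximal tubule libraries. Nqo1 fell by 3.22 ± 0.69 (log2, SE) from proximal tubule to allografts (limma, adjusted p = 0.0018) and fell by 2.35 ± 0.69 to metastases (adjusted p = 0.011). Both calls held in all 25 alternatives, with adjusted p of at most 0.0085 and 0.036.

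Within the primary tumors, Nqo1 spread too widely for a group value to describe it. The difference from proximal tubule was 0.19 ± 0.69 (adjusted p = 0.83), but without primary tumor 1 it was 1.17 (adjusted p = 0.024) and with primary tumor 1 alone it was -1.78 (adjusted p = 0.0045; 0.0045 to 0.975 over all alternatives), a single library that the fit assumes to vary like the other groups. Primary tumors 2 and 3, where Nqo1 was highest, are the 2 with 3936 and 1014 FPKM of proximal tubule markers and the male pattern of Xist and Ddx3y, and primary tumor 1, at 4.51 FPKM of Nqo1, had 162 FPKM of those markers and the female pattern. Whether Nqo1 in primary tumor 3 exceeded the sorted cells depended on the scaling: after TPM rescaling it was at 20.4, below the 22.5 to 30.1 of the sorted cells, with primary tumor 2 at 34.0 and primary tumor 1 at 3.02. The part of tubule content or sex in these values was not tested. From primary tumors to allografts Nqo1 fell by 3.40 ± 0.69 (adjusted p = 0.0034), kept in all 25 alternatives, at -1.43 with primary tumor 1 alone. From primary tumors to metastases it fell by 2.54 ± 0.69 (adjusted p = 0.028). That call was lost without any one metastasis library (-2.50 to -2.58), without primary tumor 2 (-1.78, adjusted p = 0.083) or without primary tumor 3 (-2.31, adjusted p = 0.10), and with primary tumor 1 alone the value was -0.57 (adjusted p = 0.62).

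Gclc (chr9:77754535-77794485, plus strand) and Gclm (chr3:122245557-122270732, plus strand) encode the catalytic and modifier subunits of glutamate-cysteine ligase, the rate-limiting enzyme of glutathione synthesis. Gclc was at 35.7, 39.0 and 40.2 FPKM in proximal tubule, 22.3, 84.1 and 64.9 FPKM in primary tumors, 25.9, 29.8 and 29.1 FPKM in metastases and 11.4, 10.4 and 10.8 FPKM in allografts. Gclm was at 47.8, 50.6 and 54.4 FPKM in proximal tubule, 21.2, 112 and 58.9 FPKM in primary tumors, 15.7, 18.9 and 16.25 FPKM in metastases and 20.8, 15.4 and 11.9 FPKM in allografts. The modifier subunit was low in both metastases and allografts, while the catalytic subunit was lowest in allografts and only modestly below normal in metastases. In the primary tumors both subunits repeated the order seen for Nqo1, with tumor 1 lowest and tumor 2 highest. Tumors 2 and 3 were above normal in the deposited FPKM but not after TPM rescaling. After TPM rescaling Gclm was at 62.6 and 42.0 in tumors 2 and 3 against 67.7 to 76.2 in the sorted cells, and Gclc was at 47.1 and 46.2 against 50.6 to 56.4.

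Gclm fell by 1.53 ± 0.46 (log2, SE) from proximal tubule to metastases (limma, adjusted p = 0.012) and by 1.64 ± 0.46 to allografts (adjusted p = 0.0086), and Gclc fell by 1.73 ± 0.37 to allografts (adjusted p = 0.0019). These 3 calls held in all 25 alternatives. For Gclc in metastases the difference was -0.43 ± 0.37 (adjusted p = 0.33), although no metastasis library reached the lowest proximal tubule library. It passed the threshold under 3 of the 4 other scalings and without primary tumor 1 (-0.43, adjusted p = 0.018). In primary tumors neither subunit was called against proximal tubule, at 0.37 ± 0.37 for Gclc (adjusted p = 0.42) and 0.04 ± 0.46 for Gclm (adjusted p = 0.95). Without primary tumor 1 Gclc was called higher, at 0.93 (adjusted p = 9.4e-04), and with primary tumor 1 alone Gclc was called lower, at -0.75 (adjusted p = 0.0034), as was Gclm, at -1.22 (adjusted p = 0.0043). Exons of Gclm overlap the opposite-strand transcript Gm17494 and the pseudogene Gm6061, so its level may include reads of either.

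Among the tumors Gclc fell by 2.10 ± 0.37 from primary tumors to allografts (adjusted p = 0.0017, kept in all 25 alternatives; -0.98 when primary tumors 2 and 3 were left out). From metastases to allografts Gclc fell by 1.30 ± 0.37 (adjusted p = 0.029), a call lost without any 1 of the 6 libraries compared (adjusted p = 0.061 to 0.094) although every allograft stayed under every metastasis. Gclm was at -1.67 ± 0.46 in allografts against primary tumors (adjusted p = 0.015; -1.59 and 0.051 without primary tumor 3, -0.42 and 0.31 with primary tumor 1 alone). Gclm in metastases against primary tumors was at -1.57 ± 0.46 (adjusted p = 0.037) and lost the call in 11 of 25 alternatives, among them each metastasis library in turn, primary tumor 2 (-1.03, adjusted p = 0.099), primary tumor 3 (-1.48, adjusted p = 0.11), each proximal tubule library and allograft 2, with adjusted p from 1.5e-05 to 0.74. Gclm did not differ between allografts and metastases beyond its spread (-0.10, adjusted p = 0.91).

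Because the 2 subunits form 1 enzyme, their ratio within a library was compared as well. Gclm to Gclc was 1.34, 1.30 and 1.35 in proximal tubule, 0.951, 1.33 and 0.909 in primary tumors, 0.607, 0.635 and 0.558 in metastases and 1.83, 1.48 and 1.10 in allografts. Metastases had the lowest ratio, with every library under 1 and under every library of the other groups, whereas the allograft ratios spread around the normal one although both subunits were low there. The exact permutation test over 4 groups gave p = 0.0039, adjusted over 3 ratios to 0.0058, and 0.0023 to 0.023 over the alternatives. A comparison of 3 libraries with 3 cannot give an exact 2-sided p below 0.10, so pairs of groups were not called.

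**Figure D2:**
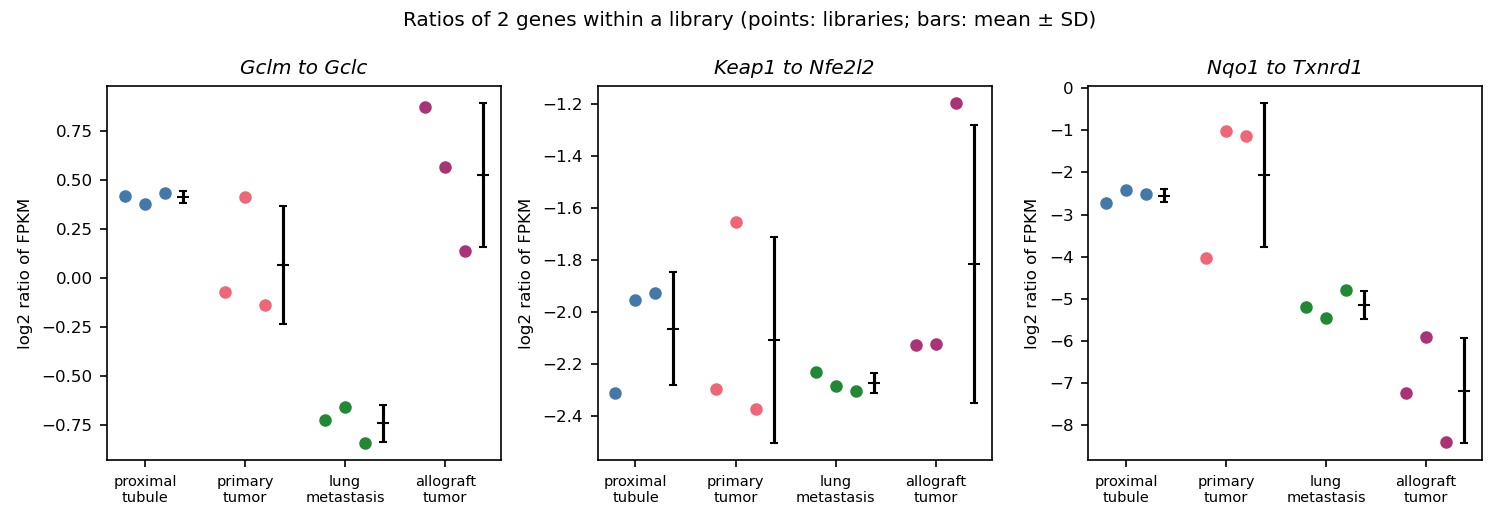
Log2 ratios of 2 genes within each library, with group means and SD beside the points. Gclm to Gclc is below 0 in all 3 metastases, with a mean of -0.74, and Nqo1 to Txnrd1 is lowest in the allografts, with a mean of -7.18.

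Hmox1 (chr8:75093621-75100589, plus strand) encodes heme oxygenase 1, which breaks heme down to biliverdin, iron and carbon monoxide and is induced by heme as well as through NRF2. It was at 8.23, 7.75 and 6.80 FPKM in proximal tubule, 33.8, 25.2 and 10.5 FPKM in primary tumors, 128, 222 and 119.8 FPKM in metastases and 13.4, 31.0 and 37.8 FPKM in allografts. In the deposited FPKM every tumor library was above every normal one, the metastases stood apart from all other libraries, and primary tumors and allografts overlapped. Within its library Hmox1 ranked between percentiles 95.6 and 97.4 in metastases and between 53.4 and 56.9 in proximal tubule. Metastases were 4.14 ± 0.45 (log2, SE) above proximal tubule (limma, adjusted p = 2.9e-05) and 2.79 ± 0.45 above primary tumors (adjusted p = 0.0022), and from metastases to allografts Hmox1 fell by 2.53 ± 0.45 (adjusted p = 0.0028). All 3 calls held in all 25 alternatives.

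The smaller rises of Hmox1 depended on the scaling. In primary tumors it was 1.35 ± 0.45 above proximal tubule (adjusted p = 0.028), or 0.76 above the median gene, and none of the 4 other scalings kept the call (0.33 to 1.01). It was also lost without any one proximal tubule library (1.28 to 1.40), without primary tumor 1 (1.02, adjusted p = 0.094) or without primary tumor 2 (1.22, adjusted p = 0.069), over adjusted p of 0.0060 to 0.60. In allografts it was 1.61 ± 0.45 above proximal tubule (adjusted p = 0.0086), or 0.95 above the median gene, and again no other scaling kept the call (0.30 to 1.02). Between allografts and primary tumors the difference was 0.26 ± 0.45 (adjusted p = 0.67).

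Libraries with much Hmox1 also held other cells. The metastases, with 119.8 to 222 FPKM of Hmox1, had the 5084 to 5668 FPKM of macrophage markers and the 12185 to 19333 FPKM of lung epithelium markers given above, and 1802 to 4913 FPKM of red blood cell markers against 32.2 to 48.3 in proximal tubule. Most of that macrophage sum was Lyz2, and most of the other macrophage markers were lower in metastases than in primary tumor 1. Red blood cell markers summed to 215, 1387 and 1131 FPKM in primary tumors 1, 2 and 3. In allografts 1, 2 and 3 they summed to 503, 1559 and 487 FPKM. Primary tumor 1, with the smallest red blood cell sum of the primary tumors, had their highest Hmox1. Allograft 1 had the largest macrophage sum of all, 6556 FPKM, and the lowest Hmox1 of the allografts, 13.4 FPKM. The part of macrophages, lung tissue or blood in the Hmox1 levels was not tested, and no lung tissue without tumor was among the groups.

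**Figure D3:**
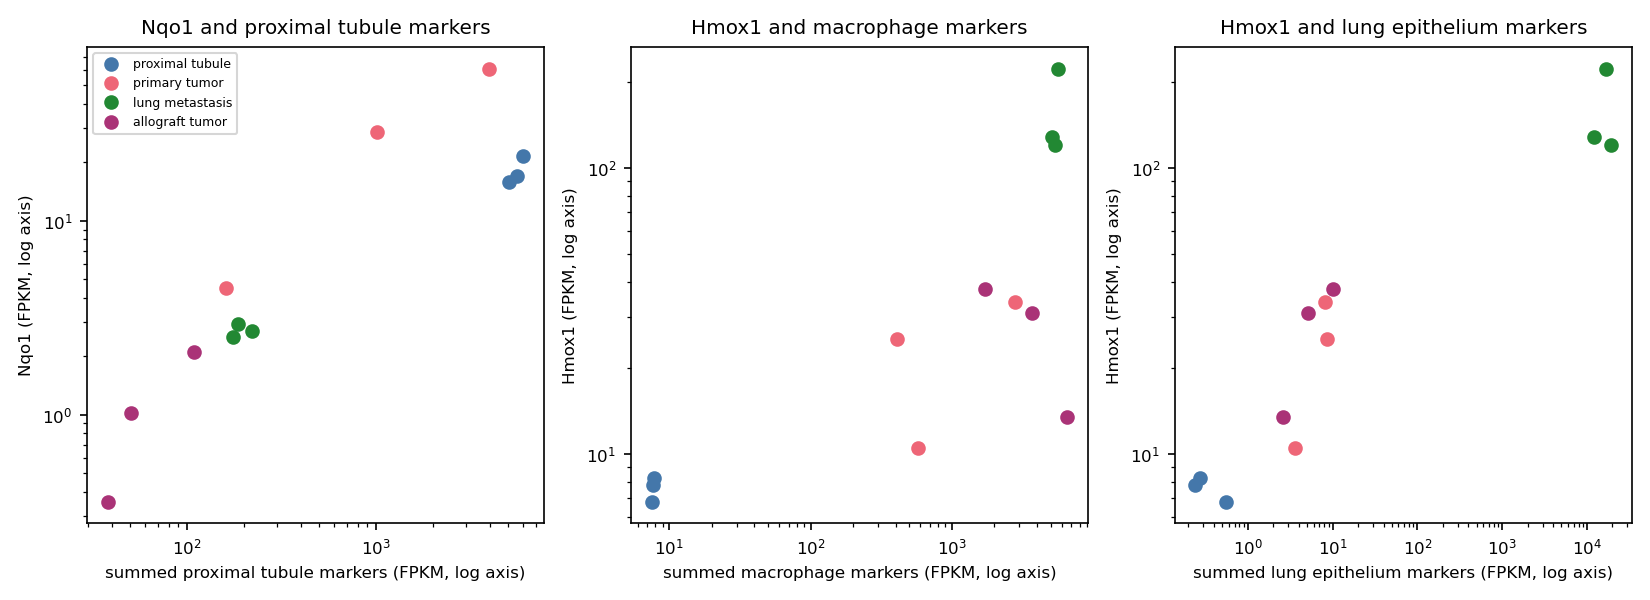
Nqo1 against summed proximal tubule markers, and Hmox1 against summed macrophage and lung epithelium markers, 1 point per library, FPKM on log axes. Primary tumors with 3936 and 1014 FPKM of tubule markers had 60.8 and 28.6 FPKM of Nqo1, and the 3 metastases combine at least 12185 FPKM of lung epithelium markers with at least 119.8 FPKM of Hmox1.

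Txnrd1 (chr10:82833951-82897712, plus strand), the cytosolic thioredoxin reductase that keeps thioredoxin reduced with NADPH, was among the most abundant of the 8 genes and was called in no comparison with the FPKM as deposited. It was at 104.6, 90.5 and 123 FPKM in proximal tubule, 73.5, 123 and 63.0 FPKM in primary tumors, 98.6, 109 and 81.8 FPKM in metastases and 153, 126 and 119 FPKM in allografts. Proximal tubule overlapped each tumor group, and only allografts and metastases did not overlap each other. With the FPKM as deposited the comparison nearest to a call was 0.66 for allografts against primary tumors (limma, adjusted p = 0.051), which passed without primary tumor 2 (0.95, adjusted p = 0.0053). Against proximal tubule the primary tumor difference was -0.34 (adjusted p = 0.26), and it became a fall under all 4 other scalings, at -1.44 to -0.55, and without primary tumor 2 (-0.62, adjusted p = 0.021). The metastasis difference was -0.13 (adjusted p = 0.64), and 3 of the 4 other scalings called it lower, over a range of -1.19 to -0.29.

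Srxn1 (chr2:152105516-152111376, plus strand) encodes sulfiredoxin, which repairs over-oxidized peroxiredoxins. It was at 15.2, 18.8 and 19.0 FPKM in proximal tubule, 11.7, 26.9 and 15.2 FPKM in primary tumors, 17.6, 15.3 and 12.7 FPKM in metastases and 9.01, 10.01 and 12.5 FPKM in allografts. The allografts were the lowest group, overlapping only the primary tumors, and the other 3 groups overlapped one another. Srxn1 fell by 0.70 ± 0.27 (log2, SE) from proximal tubule to allografts (limma, adjusted p = 0.036). The fall held under all 4 other scalings but missed the threshold without proximal tubule 2 (-0.66, adjusted p = 0.093), proximal tubule 3 (-0.65, adjusted p = 0.096), allograft 1 (-0.61, adjusted p = 0.10) or allograft 2 (-0.68, adjusted p = 0.082). No other comparison called it with the FPKM as deposited. In metastases against proximal tubule the difference was -0.21 (adjusted p = 0.50), and all 4 other scalings called it lower, at -1.21 to -0.63. In primary tumors it was -0.05 (adjusted p = 0.88), and 2 of the 4 called it lower, over a range of -1.10 to -0.42. Against primary tumors the allografts were at -0.65 (adjusted p = 0.073; -0.90 and 0.013 without primary tumor 1).

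Nqo1 and Txnrd1, 2 targets of the same factor, were set against each other as a ratio free of library scaling. Nqo1 to Txnrd1 was 0.152, 0.188 and 0.174 in proximal tubule, 0.0614, 0.495 and 0.453 in primary tumors, 0.0275, 0.0230 and 0.0360 in metastases and 0.0067, 0.0167 and 0.0030 in allografts. The order was the same as for Nqo1 alone, with no overlap between metastases, allografts and normal cells. The exact permutation test gave p = 9.1e-04, adjusted over 3 ratios to 0.0027, and 1.9e-04 to 0.016 over the alternatives.

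Counted by comparison, the 8 genes were set beside all genes tested. In primary tumors against proximal tubule 3 of 8 were called, all higher (Nfe2l2, Keap1 and Hmox1), beside 53.1% of all genes, 48.2% higher and 4.90% lower. Groups of 3 did not overlap for the same 3 members, beside 62.3% of all genes, and the members' median difference was 0.28 against 0.59 for all genes. In metastases against proximal tubule 5 of 8 were called, 3 higher and 2 lower, beside 68.4% of all genes, 54.0% higher and 14.4% lower, and the members' median was -0.17 against 0.68; 6 of 8 did not overlap, beside 83.5%. In allografts against proximal tubule 6 of 8 were called, 2 higher (Keap1 and Hmox1) and 4 lower (Nqo1, Gclc, Gclm and Srxn1), beside 69.1%, 52.2% and 16.9%, with a median of -0.25 against 0.66; 6 of 8 did not overlap, beside 75.6%. These 3 comparisons share the proximal tubule libraries, so their likeness to each other is not independent.

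Between tumor groups the all-gene medians were near 0. Metastases against primary tumors gave 3 of 8, with Hmox1 higher and Nqo1 and Gclm lower, beside 20.9% of all genes, 11.3% higher and 9.59% lower; 4 of 8 did not overlap, beside 42.0%. Allografts against primary tumors gave 4 of 8, all lower (Nqo1, Gclc, Gclm and Nfe2l2), beside 41.6%, 20.5% higher and 21.1% lower, with a members' median of -0.60 against -0.02; 4 of 8 did not overlap, beside 43.7%. Allografts against metastases gave 3 of 8, all lower (Hmox1, Nfe2l2 and Gclc), beside 23.7%, 10.4% higher and 13.3% lower, with a median of -0.68 against 0.03; 7 of 8 did not overlap, beside 48.5%. Of the 24 calls in 48 tests, 17 held under all 4 other scalings and 11 in every one of the 25 alternatives; those 11 were the falls of Nqo1 and Gclm in metastases and in allografts and of Gclc in allografts against proximal tubule, the falls of Nqo1 and Gclc in allografts against primary tumors, the fall of Nfe2l2 in allografts against metastases, and the 3 contrasts that set Hmox1 in metastases apart.

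**Figure D4:**
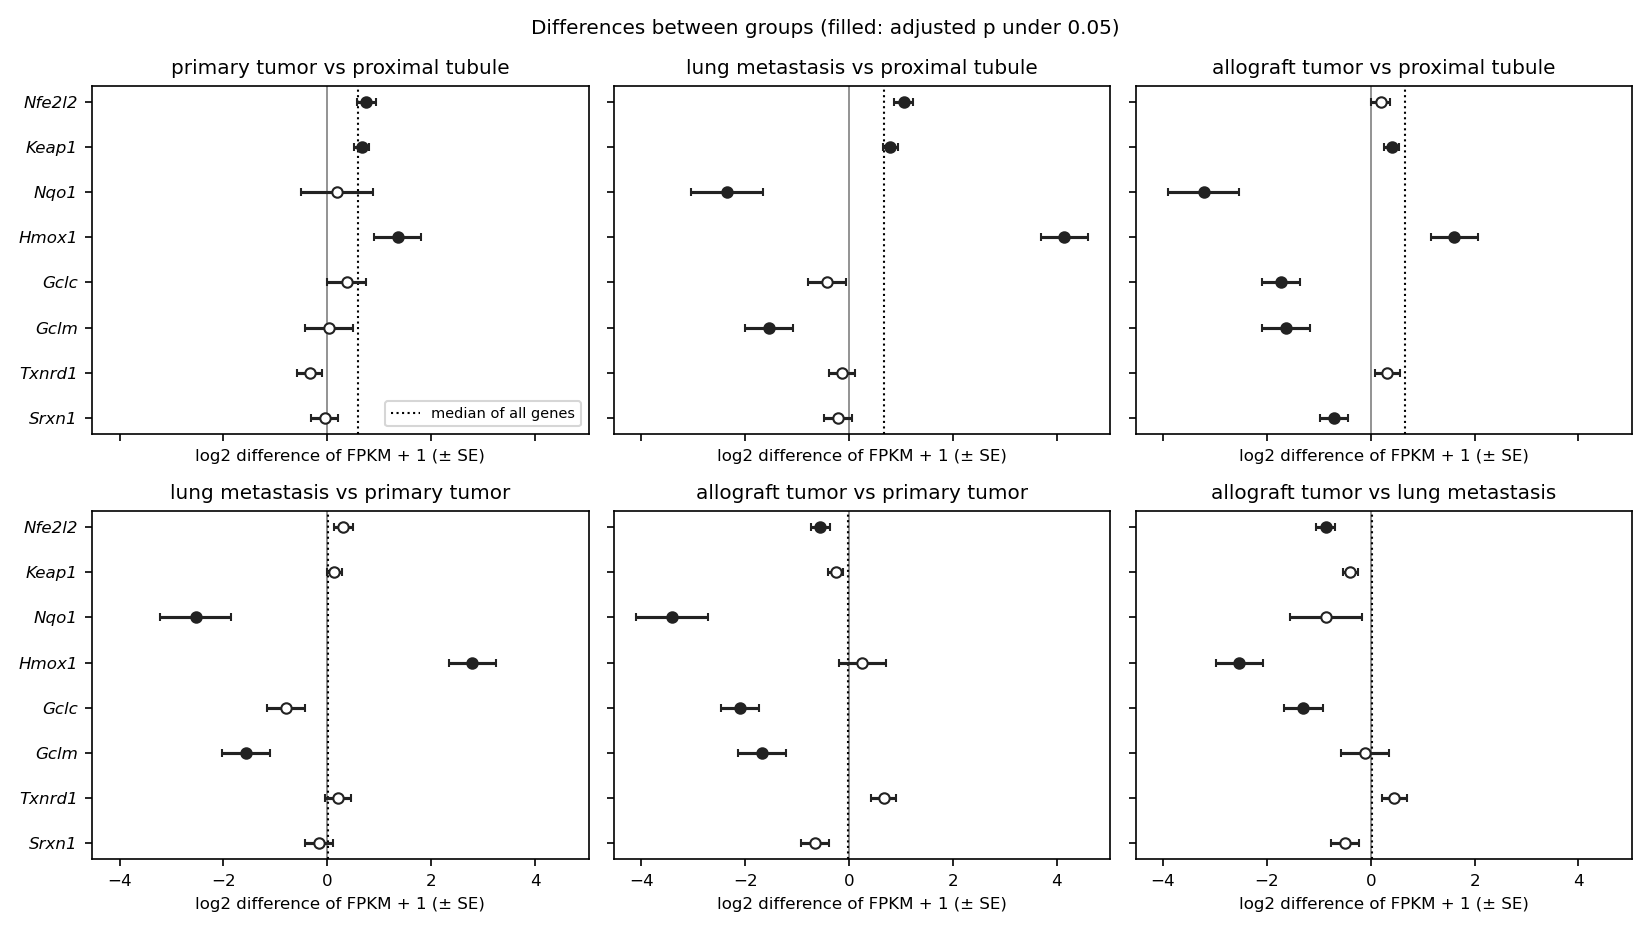
Differences of the 8 genes in the 6 comparisons on the log2(FPKM + 1) scale with SE; filled points passed an adjusted p of 0.05 (limma), and the dotted line is the median of all genes. Nfe2l2 and Keap1 sit close to that line in primary tumors and metastases against proximal tubule, Hmox1 in metastases lies at 4.14, and Nqo1 in allografts lies at -3.22.

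The wider pathway was read from 7 lists of 67 further genes, all of which passed the filter. Over all genes tested, 48.2% were called higher and 4.90% lower in primary tumors against proximal tubule, 54.0% and 14.4% in metastases, and 52.2% and 16.9% in allografts. Every fall of a listed gene against proximal tubule held under all 4 other scalings, whereas many rises did not. Because all 4 scalings lowered the median difference from the proximal tubule, that contrast was largely set by the scalings and says little about the genes. Among 10 regulators and partners of NRF2, 2 rose and 1 fell in primary tumors against proximal tubule, 5 rose and 1 fell in metastases, and 4 rose and 1 fell in allografts. Of these rises, Btrc in primary tumors, Nfe2l1, Bach1, Mafk and Rbx1 in metastases, and Nfe2l1, Bach1 and Rbx1 in allografts were called under none of the 4 other scalings. Maff, a small MAF protein that can pair with NRF2, was at 2.05 ± 0.543 FPKM (SD, n = 3) in proximal tubule, 4.40 ± 4.16 in primary tumors, 17.8 ± 2.60 in metastases and 17.9 ± 4.14 in allografts, and it rose by 2.63 ± 0.42 (log2, SE) in each of the last 2 (adjusted p = 3.1e-04 and 2.7e-04; all 25 alternatives). Mafg, another small MAF, fell by 0.68 ± 0.20 in metastases (adjusted p = 0.011; all 25 alternatives). Bach1, a repressor at antioxidant response elements and of Hmox1 in particular, was at 12.9 FPKM in proximal tubule and 28.2 FPKM in allografts, a rise of 1.08 ± 0.20 (adjusted p = 7.4e-04) that none of the 4 other scalings kept (-0.27 to 0.54). Sqstm1, the most abundant gene of the list and the gene of an autophagy adaptor that can bind KEAP1, averaged between 163 and 204 FPKM in the 4 groups. Its primary tumors 1, 2 and 3 were at 140, 327 and 146 FPKM.

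Of 12 genes for glutathione synthesis, supply and reduction, 3 rose and 2 fell in primary tumors, 4 rose and 5 fell in metastases, and 3 rose and 4 fell in allografts. Rises were thus 25.0%, 33.3% and 25.0% of the list, beside 48.2%, 54.0% and 52.2% of all genes, and falls 16.7%, 41.7% and 33.3%, beside 4.90%, 14.4% and 16.9%. Slc7a11, the cystine importer and an NRF2 target outside the 8 genes, was at 5.68, 4.76 and 4.67 FPKM in proximal tubule, 17.6, 16.0 and 19.3 FPKM in primary tumors, 18.7, 23.9 and 20.8 FPKM in metastases and 16.8, 14.4 and 24.5 FPKM in allografts. In the deposited FPKM all 9 tumor libraries were above normal, and the tumor groups overlapped. The rise was 1.63 ± 0.19 in primary tumors (limma, adjusted p = 1.1e-04) and 1.87 ± 0.19 in metastases (adjusted p = 2.1e-05), each in all 25 alternatives. In allografts Slc7a11 was 1.67 ± 0.19 higher (adjusted p = 3.5e-05), called under 3 of the 4 other scalings, over a range of 0.38 to 1.10. Ggt1, the brush border enzyme that takes glutathione apart outside the cell, went from 274 FPKM in proximal tubule to 0.964 FPKM in metastases, a difference of -7.12 ± 0.95 (adjusted p = 9.9e-05); primary tumors 1, 2 and 3 had 13.5, 494 and 124 FPKM. Gpx3, the secreted glutathione peroxidase of the proximal tubule, fell by 8.58 ± 1.02 in allografts (adjusted p = 4.0e-05), and its primary tumors were in the same order as for Nqo1, at 161, 6701 and 1651 FPKM. Gpx8, a peroxidase of the endoplasmic reticulum, rose in all 3 tumor groups, by 2.75 ± 0.39, 3.89 ± 0.39 and 4.24 ± 0.39 (adjusted p = 3.2e-04, 1.9e-05 and 1.1e-05; all 25 alternatives each).

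Gpx2, a glutathione peroxidase of epithelia and a known NRF2 target, had 7.09, 12.8 and 12.5 FPKM in metastases, whereas each proximal tubule library listed it at 0. The primary tumors had 0.525, 0 and 0.0694 FPKM, and the metastases were 3.28 ± 0.40 higher than these (adjusted p = 3.8e-04; all 25 alternatives). Allograft 2 alone among the other libraries passed 1 FPKM, at 2.21 FPKM. The part of lung tissue in the Gpx2 level of metastases was not tested.

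Of the 14 detoxification and efflux genes, 6 rose in each tumor group against proximal tubule, while 3 fell in primary tumors, 5 in metastases and 6 in allografts. The rises were 42.9% of the list in each group, beside 48.2%, 54.0% and 52.2% of all genes, and the falls 21.4%, 35.7% and 42.9%, beside 4.90%, 14.4% and 16.9%. Cbr3 in primary tumors, Ephx1 in metastases and Ugdh in allografts were rises that none of the 4 other scalings kept. Akr1b8, an aldo-keto reductase, was at 0.859, 1.19 and 0.430 FPKM in proximal tubule, 28.7, 5.41 and 8.32 FPKM in primary tumors, 39.2, 36.8 and 34.4 FPKM in metastases and 43.8, 32.3 and 17.0 FPKM in allografts. Its order within the primary tumors was the reverse of that of Nqo1, with the highest value in tumor 1. Akr1b8 rose by 2.75 ± 0.50, 4.39 ± 0.50 and 4.06 ± 0.50 (adjusted p = 0.0013, 3.8e-05 and 5.2e-05), in all 25 alternatives each. Abcc1, a pump for glutathione conjugates, rose by 2.43 ± 0.20 in primary tumors and by 3.45 ± 0.20 in allografts (adjusted p = 1.8e-05 and 1.5e-06), whereas Abcc2, the apical pump of the same family, fell from 207 FPKM in proximal tubule to 0.353 FPKM in metastases and 0.425 FPKM in allografts. Gstp1, the most abundant of the 14, averaged between 114 and 180 FPKM in the 4 groups, with 95.5, 302 and 123 FPKM in primary tumors 1, 2 and 3. From metastases to allografts the glutathione transferase genes Gsta4 and Gstm1 fell by 2.81 ± 0.56 (adjusted p = 0.0051) and fell by 2.43 ± 0.61 (adjusted p = 0.016).

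In the thioredoxin and peroxiredoxin list of 12 genes, 1 rose and 1 fell in primary tumors, 3 rose and 4 fell in metastases and 2 rose and 4 fell in allografts, beside all-gene shares of 48.2% higher and 4.90% lower, 54.0% and 14.4%, and 52.2% and 16.9%. The 2 rises in allografts, Prdx2 and Prdx4, were called under none of the 4 other scalings. Sesn2, a stress-induced sestrin, fell in all 3 groups, by 1.21 ± 0.28, 1.69 ± 0.28 and 1.73 ± 0.28 (adjusted p = 0.0045, 3.6e-04 and 2.7e-04; all 25 alternatives each). Txnip, which binds and inhibits thioredoxin, was at 72.9 FPKM in proximal tubule, 310 FPKM in primary tumors, 167 FPKM in metastases and 82.6 FPKM in allografts, and it rose by 2.13 ± 0.27 in primary tumors (adjusted p = 1.5e-04; all 25 alternatives). Prdx5, the most abundant gene of the list, averaged 721 FPKM in proximal tubule, 947 in primary tumors, 191 in metastases and 275 in allografts. Its primary tumors 1, 2 and 3 were at 215, 1918 and 708 FPKM, and the log2 difference from proximal tubule was -0.11 (limma, adjusted p = 0.89). Of 7 genes for NADPH supply, which feeds both thioredoxin and glutathione reductases, 2 rose and 0 fell in primary tumors, 3 rose and 1 fell in metastases and 2 rose and 3 fell in allografts, beside the same all-gene shares. The rise of Pgd in metastases was called under none of the 4 other scalings. G6pdx, the entry enzyme of the pentose phosphate pathway, was at 7.65 FPKM in proximal tubule, 17.2 in primary tumors, 23.7 in metastases and 27.2 in allografts, rises of 1.08, 1.52 and 1.71 (adjusted p = 4.3e-04, 2.6e-05 and 1.2e-05) that only TPM rescaling ended. Idh1 and Me1, cytosolic makers of NADPH outside that pathway, fell in allografts, with differences of -3.19 ± 0.60 and -2.54 ± 0.70 (adjusted p = 7.4e-04 and 0.0076).

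Heme and iron handling genes (8 in the list) included 2 that rose and 0 that fell in primary tumors, 2 that rose and 3 that fell in metastases and 1 that rose and 4 that fell in allografts, beside all-gene shares of 48.2% higher and 4.90% lower, 54.0% and 14.4%, and 52.2% and 16.9%. Hmox2, the constitutive heme oxygenase, was among the rises in primary tumors and in metastases, and none of the 4 other scalings kept either call. Blvrb, which encodes biliverdin reductase B, was at 7.62 FPKM in proximal tubule and 34.4 FPKM in metastases. That rise was 2.04 ± 0.33 (limma, adjusted p = 3.5e-04, all 25 alternatives). Blvra, which encodes biliverdin reductase A, fell in metastases by 1.33 ± 0.42 (limma, adjusted p = 0.017, all 25 alternatives). Ftl1, the ferritin light chain and the most abundant gene of the list, averaged between 1548 and 2463 FPKM in the 4 groups. Its primary tumors 1, 2 and 3 were at 1225, 2610 and 810 FPKM. Fth1, the ferritin heavy chain, was at 984 ± 76.4 FPKM in proximal tubule, 874 ± 186 in metastases and 293 ± 61.3 in allografts, a fall of 1.76 ± 0.38 in the last (adjusted p = 0.0018; all 25 alternatives). Of the 4 superoxide and peroxide enzymes outside the core NRF2 set, 1 fell in primary tumors, 3 in metastases and 4 in allografts, beside 4.90%, 14.4% and 16.9% of all genes, and 0 rose. Sod1, the most abundant of them, averaged 524 FPKM in proximal tubule and 207 FPKM in allografts. Cat, catalase, was at 493 FPKM in proximal tubule, with 40.3, 511 and 166 FPKM in primary tumors 1, 2 and 3, and fell by 3.11 ± 0.70 in metastases and 3.82 ± 0.70 in allografts (adjusted p = 0.0025 and 6.3e-04). Ggt1, Gpx3, Abcc2 and Cat stood in the same order within the primary tumors as the proximal tubule marker sums of 162, 3936 and 1014 FPKM, and the part of tubule content in them was not tested.

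**Figure D5:**
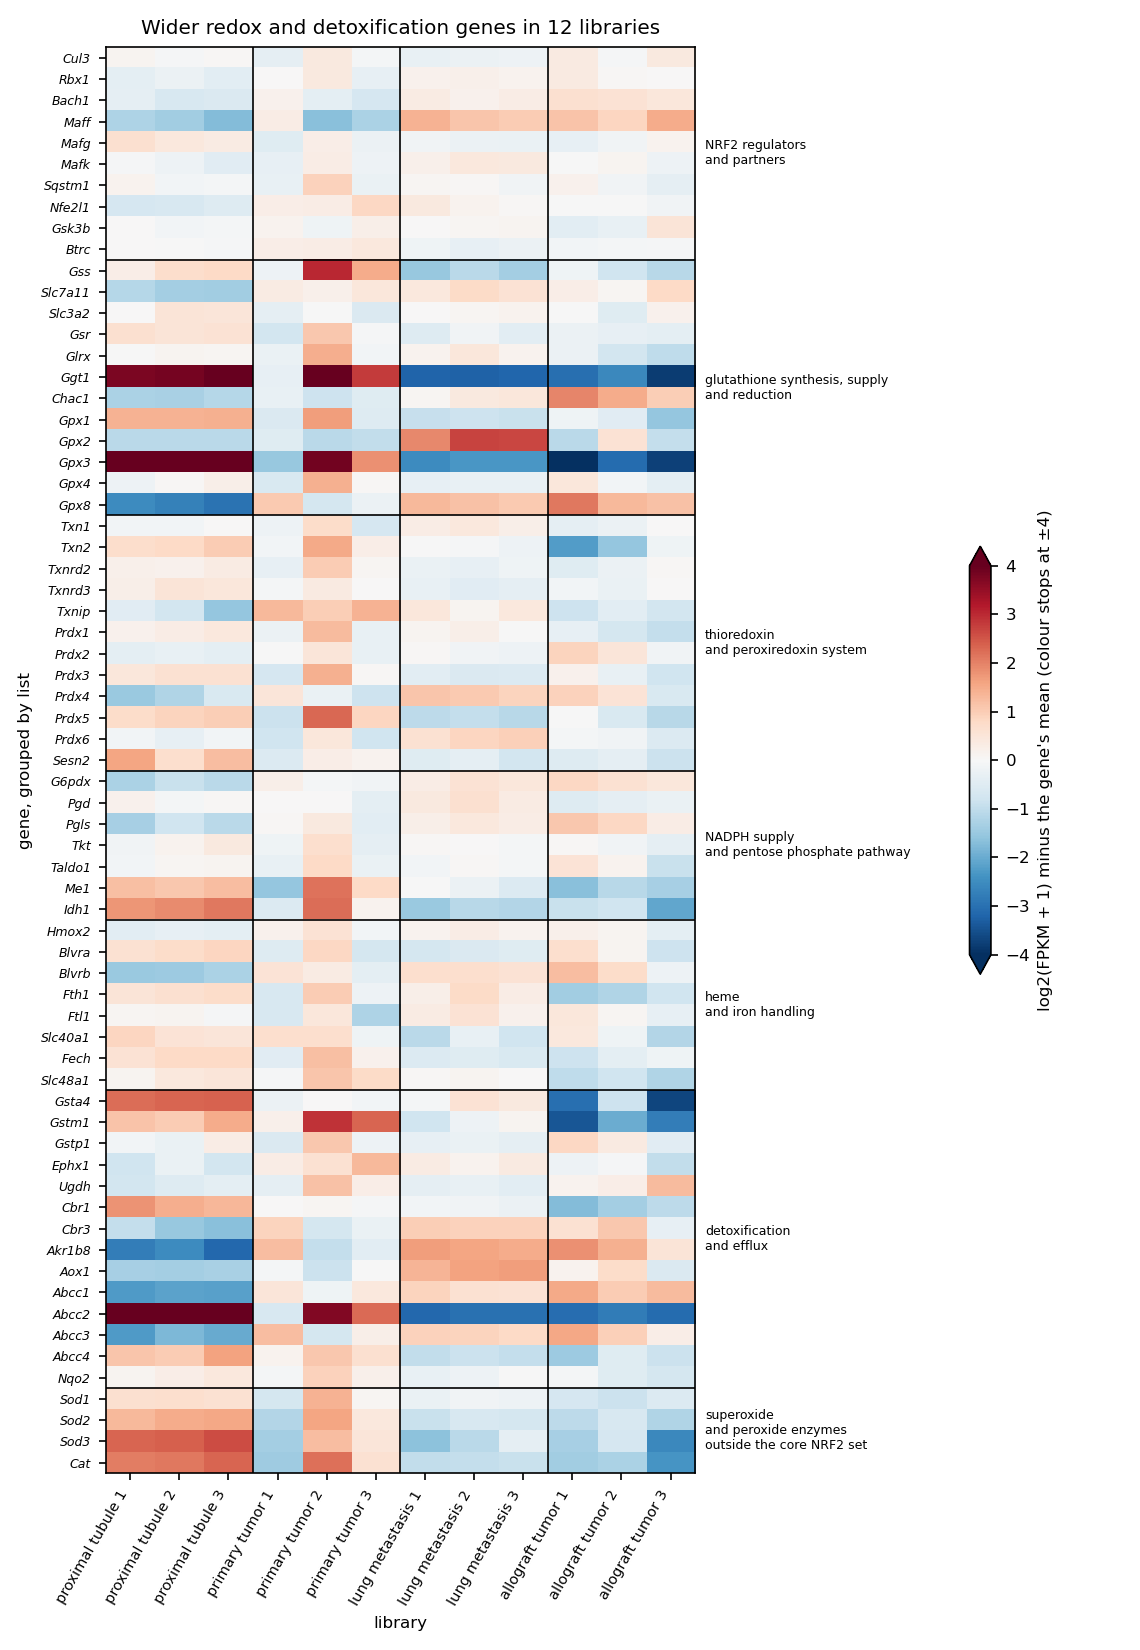
Levels of 67 redox and detoxification genes in 12 libraries, as log2(FPKM + 1) minus each gene's mean, with colour stopping at 4 in either direction and lines between the 7 lists and the 4 groups. Ggt1, Gpx3, Abcc2 and Cat are high in proximal tubule and in primary tumor 2, lower in primary tumor 3 and low in primary tumor 1, metastases and allografts; Gpx8, Akr1b8 and Abcc1 show the reverse between normal and tumor libraries.

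Across the 12 libraries the levels of some members ran together. As a description over libraries that share their groups, Pearson's r on log2(FPKM + 1) was 0.97 between Nqo1 and Gclm, 0.91 between Nqo1 and Gclc and 0.85 between Gclc and Gclm. Nfe2l2 gave r of -0.12 with Nqo1 and 0.70 with Hmox1, and Nqo1 gave -0.54 with Hmox1. Among 14945 other genes, the 3 most like Nqo1 were Rnf123 (r = 0.991), Chpt1 (0.985) and Cpt1a (0.983). The 3 most like Gclm were Acat1, Amacr and Ces2c, each at 0.988, genes of mitochondrial, peroxisomal and ester metabolism, and Gclc was closest to the heme transporter gene Slc48a1 (0.980). Hmox1 was closest to Tex15 (0.971), Gstp3 (0.968) and Myb (0.963), Nfe2l2 to Arrb1 (0.962), Keap1 to Rabif (0.973) and Srxn1 to Cops7a (0.944). Txnrd1 had the weakest best match, Pgam1-ps2 at 0.920.

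The promoters of the members were searched for the letters of the antioxidant response element, to set targets that moved beside targets that did not. RefSeq windows of 300 bases (250 before and 50 after the start site, GRCm38.p6) were present for 6 of the 8 genes, 8 windows in all; Hmox1 and Gclc had none. The core searched was TGACNNNGC on both strands, present in 12.4% of all 32851 windows, and TGANTCA, an AP-1 element that can lie inside an extended antioxidant response element, present in 7.81%. The core was found once each in Nfe2l2, Gclm, Srxn1 and the second of 3 Txnrd1 windows, and TGANTCA was found in Srxn1 only, at 2 positions. The stretches below show the match in capitals with 10 bases on each side, 5′ to 3′ on the strand that holds it.
Nfe2l2, chr2:75704885-75704913, minus strand: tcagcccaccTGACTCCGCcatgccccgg
Gclm, chr3:122245413-122245441, minus strand: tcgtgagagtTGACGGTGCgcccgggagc
Txnrd1, chr10:82859104-82859132, minus strand: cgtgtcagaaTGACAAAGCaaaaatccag
Srxn1, chr2:152105542-152105570, minus strand: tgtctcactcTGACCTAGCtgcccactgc
Srxn1 AP-1 match, chr2:152105412-152105438, plus strand: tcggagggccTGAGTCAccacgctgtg
Srxn1 AP-1 match, chr2:152105469-152105495, plus strand: aaattcacccTGAGTCAgcggccgggc
Nqo1 and Keap1 had no match to either pattern within their windows, which says only that these letters are not there. Gclm, whose level fell in metastases and allografts, and Txnrd1, which was not called in any comparison of the deposited FPKM, each held 1 match to the core. A match is a run of letters and not a measured binding site.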

How the data were processed

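The authors deposited 1 table of FPKM values for 12 libraries. Salmon, bcl2fastq 2.17.1.14 and the builds GRCm38 and mm10 are named in the submitters' processing notes; no source used here gives Salmon's version, its index or the strand setting. No counts were used, so depth was estimated from the smallest steps of single-transcript genes. Symbols and loci came from GENCODE M21, which named 24189 of 24432 identifiers.

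FPKM plus a pseudocount of 1 were taken to log2, which understates changes of low genes. All 12 libraries entered 1 limma 3.58.1 fit (R 4.3.3) of 4 groups with a variance trend; Benjamini-Hochberg adjustment ran over 16313 genes, with calls at an adjusted p under 0.05. Ratios within a library were tested by exact permutation over all assignments (Python 3.11.15, numpy 2.4.6), 2-sided in effect since sums of squares carry no sign. The fit was tested on simulated data. Alternatives changed the pseudocount (0.1 or 5), the filter, the scaling, the weights, the variances, the groups fitted, the replicate block and the libraries.

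The 8 members and the lists were chosen with earlier results of these data known. Named from each list were its most abundant gene and some of the called genes with the largest changes. These were drawn, per comparison, from up to 2 genes with the largest rise and up to 2 with the largest fall. Rises that no other scaling kept were also named. The named genes are therefore not all of the largest changes. Sod3, at -2.32 in primary tumors, -3.47 in metastases and -3.97 in allografts against proximal tubule, was left out. So were Chac1, at 2.70 in allografts, and Txn2, Abcc3, Abcc4 and Aox1, among others.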

Additional observations from a re-analysis of the deposited data

How the results depend on the processing

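Counts of members called were recomputed under 25 alternatives. Pseudocounts of 0.1 and 5, both filters and robust variances left all 6 counts as they were. Quantile normalization gave 1 member in primary tumors against proximal tubule in place of 3. Scaling without the 50 most abundant genes gave 1 there, 8 in metastases against proximal tubule in place of 5, and 5 in allografts against metastases in place of 3. Array weights, which stopped before convergence, gave 6 in metastases against primary tumors in place of 3, 7 in allografts against primary tumors in place of 4, and 5 in allografts against metastases. A fit of only the 2 groups compared gave 1 in metastases against primary tumors and 2 in allografts against primary tumors. With primary tumor 1 as the only primary tumor the counts were 6 against proximal tubule, 1 for metastases against primary tumors and 5 for allografts against metastases. Leaving out 1 library at a time gave 2 to 4 in primary tumors against proximal tubule, 5 to 6 in metastases and 4 to 6 in allografts; 1 to 4 in metastases against primary tumors, 2 to 5 in allografts against primary tumors, 2 to 4 in allografts against metastases, and 6 to 8 in the test over 4 groups. The count of 1 in metastases against primary tumors came without any one metastasis library, without primary tumor 2 or without primary tumor 3, and the count of 2 in allografts against primary tumors came without primary tumor 3. The test over 4 groups called 8 members after TPM rescaling and 7 after quantile normalization.

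Directions turned mostly in comparisons with the proximal tubule. After TPM rescaling the primary tumors were at -0.35 for Keap1, -0.34 for Nfe2l2, -0.85 for Nqo1, -1.05 for Gclm and -0.71 for Gclc, the metastases at -0.18 for Keap1, and the allografts at -0.87 for Keap1, -1.19 for Nfe2l2 and -1.09 for Txnrd1; Hmox1 in allografts against primary tumors was at -0.027. Median-of-ratios scaling gave -0.44 for Nqo1, -0.61 for Gclm and -0.27 for Gclc in primary tumors, and -0.18 for Keap1, -0.44 for Nfe2l2 and -0.32 for Txnrd1 in allografts. Quantile normalization gave -0.38 for Nqo1 and -0.31 for Gclm in primary tumors, and -0.20 for Keap1 and -0.21 for Nfe2l2 in allografts. Scaling without the 50 most abundant genes gave -0.18 for Nqo1, -0.34 for Gclm and -0.0044 for Gclc in primary tumors, -0.24 for Keap1, -0.50 for Nfe2l2 and -0.39 for Txnrd1 in allografts, and -0.051 for Hmox1 in allografts against primary tumors. With primary tumor 1 alone the values against proximal tubule were -1.78 for Nqo1, -1.22 for Gclm and -0.75 for Gclc; metastases against primary tumors were then at 0.32 for Gclc and 0.34 for Srxn1, and allografts against primary tumors at -0.41 for Hmox1.

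Leaving out 1 library at a time moved 7 differences, none called with all libraries, across 0: in primary tumors against proximal tubule -0.57 to 1.17 for Nqo1, -0.0017 to 0.93 for Gclc, -0.51 to 0.67 for Gclm and -0.37 to 0.19 for Srxn1; in metastases against primary tumors -0.40 to 0.16 for Srxn1; in allografts -0.21 to 0.69 for Hmox1 against primary tumors and -0.30 to 0.079 for Gclm against metastases.

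Over 18 same-numbered pairs of libraries the correlation of deviations ran from -0.04 to 0.10, none over 0.1. Pairs with different numbers ran from -0.23 to 0.13. These correlations cannot tell whether same-numbered libraries share an animal or a batch. The sex markers do separate some of them. Primary tumors 2 and 3 had the male pattern, with 30.0 and 20.5 FPKM of Ddx3y. The metastases and the sorted cells had the female pattern, with at most 0.259 FPKM. Same-numbered libraries of these groups at numbers 2 and 3 therefore do not come from 1 animal, and no metastasis shares an animal with primary tumor 2 or 3. With the replicate number as a block, allografts against proximal tubule gave 5 members in place of 6, since Keap1 was at an adjusted p of 0.050, and the counts in the other comparisons stayed at 3, 5, 3, 4 and 3. The blocked exact tests of the ratios gave adjusted p of 0.023 for Gclm to Gclc, 0.53 for Keap1 to Nfe2l2 and 0.016 for Nqo1 to Txnrd1. Depth limits Nqo1 in allograft 3 most, at about 6.25 fragments, and the precision of the shallower proximal tubule libraries. The cause of these changes was not tested, beyond the fewer libraries of the left-out fits.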
